A study of Mus musculus with 4 samples.

Results

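The 8 genes described here encode the CD3 chains of the T cell receptor complex (Cd3g, Cd3d, Cd3e and Cd247) and the kinases and adaptors that act directly beneath it (Lck, Zap70, Lat and Lcp2). They were found by gene symbol among the 38697 genes of the authors' comparison, and all 8 have a row and an adjusted p. They were selected on the log2 difference between genotypes, with Cd3g lower in knockout (KO) cells as the reason for the choice, so the genotype differences of the 8 genes are given as a description and support nothing. Their positions and their upstream sequences played no part in that choice. Levels averaged over both genotypes were no criterion either, but an abundant gene passes the authors' test at a smaller difference. The high level of Cd3g beside Cd3d and Cd3e is therefore not independent of the choice.

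RNA was measured in group 2 innate lymphoid cells (ILC2s), lymphocytes that live in tissues and secrete IL-5 and IL-13. They were sorted from lung tissue of C57BL/6 mice after bleomycin, which injures the lung. The wild-type (WT) group carried R5/+ and the KO group R5/+Nrp1f/f, so both groups carried 1 copy of R5, an Il5 reporter allele that also encodes Cre, and both received bleomycin. Cre from this allele acts in cells that have expressed Il5, and cells that never did so keep Nrp1. There were 2 WT and 2 KO samples, each a pool of 3 to 4 mice. The sources used here do not give the ages of the mice, the dose and timing of bleomycin or the gate of the sort. The values are those of the authors' comparison: baseMean, which averages a gene's normalized counts over all libraries, and the log2 difference between genotypes with its standard error (SE). The table also carries 8 columns of values per library whose codes could not be tied to a sample, and these were not used, so no value per sample and no spread between pools is given.

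In T cells the receptor chains that bind antigen have almost no signalling tail of their own. The CD3 gamma, delta and epsilon chains pair as gamma-epsilon and delta-epsilon, join a dimer of the zeta chain encoded by Cd247, and carry the tyrosine motifs (ITAMs) that relay the signal. Lck, a Src-family kinase, phosphorylates these motifs, the kinase ZAP-70 docks on them and phosphorylates the membrane adaptor LAT and the cytosolic adaptor SLP-76 (encoded by Lcp2), and these gather the enzymes that raise calcium and activate Ras and NF-kB. ILC2s carry no antigen receptor at the surface and are usually sorted as cells negative for CD3, while several of the kinases and adaptors also serve other receptors in NK cells, mast cells and innate lymphoid cells.

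The upstream sequences of the CD3 chains are shown first because Cd3g and Cd3d start head to head, with 1354 bases between their first bases, and yet differed widely in level. Each run is the 250 bases just before the start site in RefSeq's promoter table (build GRCm38.p6), printed 5′ to 3′ on the gene's own strand. They cover chr9:44980432-44980681 (minus strand) for Cd3g, chr9:44981536-44981785 (plus strand) for Cd3d, chr9:45009612-45009861 (minus strand) for Cd3e and chr1:165788431-165788680 (plus strand) for Cd247. Capitals mark matches, on either strand, to 4 short motifs. These were AGATAA for GATA factors, AGGAAG for Ets factors, TGTGGT for Runx factors and CTTTGA for TCF/LEF factors.
Cd3g: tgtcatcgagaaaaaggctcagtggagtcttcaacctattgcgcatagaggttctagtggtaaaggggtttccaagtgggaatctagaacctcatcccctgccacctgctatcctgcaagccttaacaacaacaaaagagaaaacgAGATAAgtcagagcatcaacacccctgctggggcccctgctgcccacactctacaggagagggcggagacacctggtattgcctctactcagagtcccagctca
Cd3d: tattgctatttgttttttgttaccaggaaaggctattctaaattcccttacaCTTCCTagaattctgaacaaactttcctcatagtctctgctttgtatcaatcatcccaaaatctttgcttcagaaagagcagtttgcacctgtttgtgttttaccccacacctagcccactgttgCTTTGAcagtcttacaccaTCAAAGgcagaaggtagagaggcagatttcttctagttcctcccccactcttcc
Cd3e: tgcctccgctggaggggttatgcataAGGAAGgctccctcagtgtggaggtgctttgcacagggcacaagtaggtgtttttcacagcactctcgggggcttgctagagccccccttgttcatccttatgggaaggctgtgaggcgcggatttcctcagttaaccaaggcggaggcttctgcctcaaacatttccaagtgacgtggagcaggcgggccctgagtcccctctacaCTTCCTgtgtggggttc
Cd247: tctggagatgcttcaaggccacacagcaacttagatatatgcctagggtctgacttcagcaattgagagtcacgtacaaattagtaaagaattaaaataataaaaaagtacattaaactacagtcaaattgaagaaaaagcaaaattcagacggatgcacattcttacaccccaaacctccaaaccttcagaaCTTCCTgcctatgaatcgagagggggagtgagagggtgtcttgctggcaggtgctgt
The Cd3g window held 1 GATA match, beginning 104 bases before the start, and no match to the other motifs searched. The Cd3d window held 1 Ets and 2 TCF/LEF matches, the Cd3e window 2 Ets matches and the Cd247 window 1 Ets match, none of them overlapping another. Of the 32851 promoter windows of the same length in the table, 9.99% held the GATA letters, 29.5% the Ets letters, 14.0% the Runx letters and 13.8% the TCF/LEF letters. Among the other 4 genes, Lcp2 was the only one with GATA letters in its window, at 2 places, and the window at the 5′ end of Lck held 3 Ets and 1 Runx match. These matches describe the letters and show neither binding nor use of a start site.

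The labelled cell type was checked against its markers. All 13 ILC2 markers were measured, with a median baseMean of 9649 in the authors' deposited table. They ranged from 187 for Il13 to 41644 for Rora, with Gata3 (39152) next to Rora. Il13 and Thy1 (984) stood below the T cell markers Trbc1, Trbc2 and Ccr7. These values are not divided by gene length. Divided by exon length in kb, Areg (11556) and Gata3 (9842) were highest of the ILC2 markers. Rora then stood at 3186, below Trbc1 (3923) and Trbc2 (3649). No marker of other lymphocytes stood at 0, and their levels varied widely. The 15 T cell markers ranged from 3.84 to 2938 in baseMean in the authors' deposited table, highest for Trbc1 (2938), Trbc2 (2525) and Ccr7 (1410), and the 6 gamma delta T cell markers from 8.21 to 2276, highest for Tcrg-C4. Among the other T cell genes, the baseMean in the authors' deposited table was 664 for Cd28, 352 for Cd27, 265 for Lef1, 114 for Trac and 93.8 for Themis. It was lower for Cd6 (63.3), Cd8b1 (17.7), Cd5 (14.8), Cd4 (13.8), Trat1 (12.2), Foxp3 (9.84) and Cd8a (3.84). The 8 B cell markers ranged from 13.6 to 67.3, and the 8 NK cell markers from 1.64 to 87.0.

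The 4 CD3 chains stood far apart in level. Between genes, levels are compared as baseMean per kb of exon, with exon lengths from GENCODE M21. On this scale Cd3g, the gamma chain (ENSMUSG00000002033, chromosome 9, 44969572 to 44980431, mm10), stood at 294.6, higher than 94.7% of the 38388 genes ranked. Cd3e, the epsilon chain that pairs with both gamma and delta, stood at 12.7 per kb, and Cd3d, the delta chain, at 9.99. The level of Cd3g per kb was thus 23.2 times that of Cd3e and 29.5 times that of Cd3d. Cd247, the zeta chain, lay between them at 31.8 per kb. Of the exonic bases of Cd247, 56.4% are also exon of Pou2f1 on the opposite strand. The labels do not say that the library kits mark strand, so this level could include reads of Pou2f1. In the authors' deposited table the baseMean was 963 for Cd3g, 51.8 for Cd3e and 18.1 for Cd3d, so the values of the last 2 rest on few reads. With the longest annotated transcript in place of all exons, the ratio of Cd3g to Cd3e was 18.7 and that to Cd3d 33.8. The levels are means over both genotypes with no spread per library, so neighbours in this order, such as Cd3e and Cd3d, cannot be separated here.

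**Figure D1:**
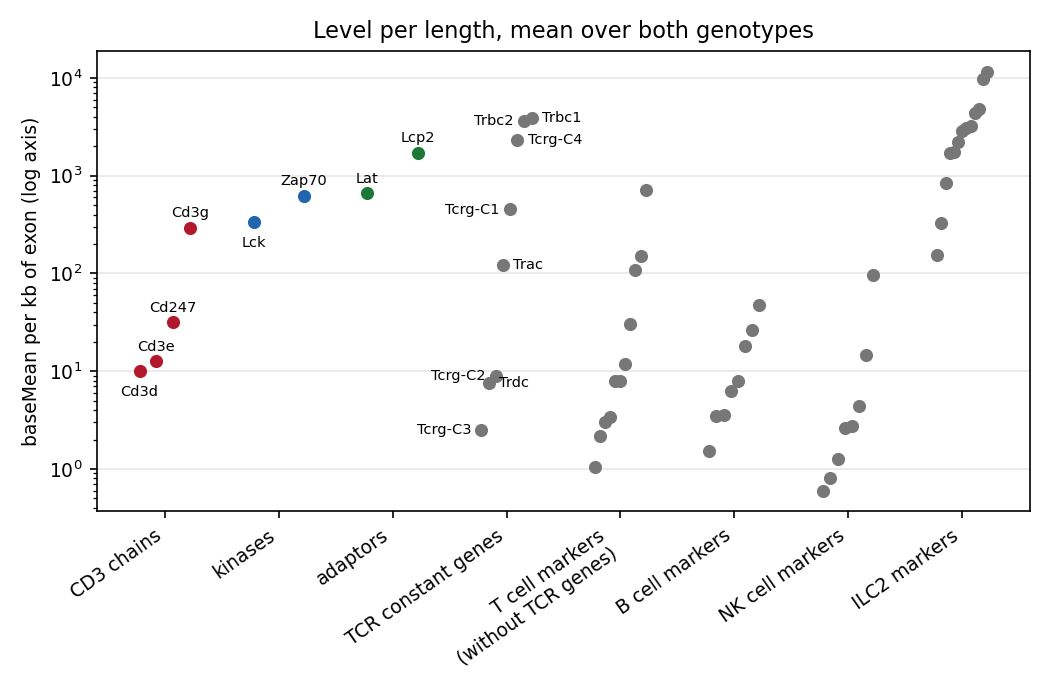
Level per length of each gene, as baseMean per kb of exon on a log axis, averaged over both genotypes, for the CD3 chains (red), kinases (blue), adaptors (green) and the genes of other lists (grey), 1 point per gene. Cd3g (294.6) stands close to Lck (336), while Cd3e (12.7) and Cd3d (9.99) stand among the markers of T and B cells.

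Cd3g, Cd3d and Cd3e lie within 40056 bases of chromosome 9, Cd3d (44981786 to 44987339, plus strand) between Cd3g and Cd3e (44998740 to 45009627, minus strand). The gene next to Cd3g on its other side is Ube4a, a ubiquitin ligase, 3971 bases away, with a level of 82.6 per kb. The genes beyond Cd3e were at low levels, with Mpzl2, an adhesion protein, at 2.42 per kb. The genes beyond Ube4a, Atp5l (208 per kb) and Kmt2a (79.8 per kb), were at levels nearer to that of Cd3g than Cd3d was, although Cd3d is its closest neighbour.

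**Figure D2:**
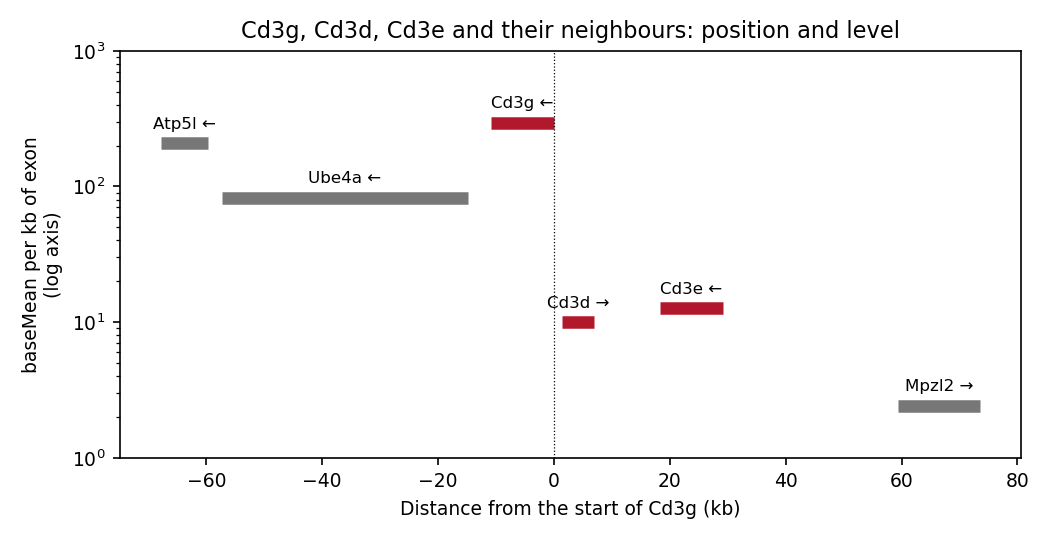
Position of Cd3g, Cd3d, Cd3e (red) and neighbouring genes (grey) as distance from the start of Cd3g in kb, against baseMean per kb of exon on a log axis. Arrows give the direction of transcription, and Cd3g (294.6) stands well above Cd3d (9.99), which starts on the other side of the dotted line.

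The kinases and adaptors were all at levels per kb above that of Cd3g. Lcp2, the SLP-76 adaptor, was the most abundant of the 8 at 1713 per kb, above 99.1% of genes. Lat followed at 664 per kb and Zap70 at 626, with Lck at 336. The order of the 8 genes, from Lcp2 through Lat, Zap70, Lck, Cd3g, Cd247 and Cd3e to Cd3d, was the same with the longest transcript as length. Lat and Zap70 stood side by side, and nothing here separates them.

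The receptor constant genes, which encode the chains that CD3 would join, were also unequal in level. Trbc1 and Trbc2, the beta chain constant genes, stood at 3923 and 3649 per kb, while Trac, the alpha chain constant gene, stood at 122. Tcrg-C4 and Tcrg-C1, gamma chain constant genes, stood at 2311 and 450 per kb. The other gamma chain constant genes, Tcrg-C2 and Tcrg-C3, stood at 8.99 and 2.51, and Trdc, the delta chain constant gene, at 7.63. The beta chain genes were thus far above the alpha chain gene, and of the 4 gamma chain genes Tcrg-C4 and Tcrg-C1 stood far above Trdc while Tcrg-C2 and Tcrg-C3 did not. Trbc1 and Trbc2 are near-identical copies, and the sources used here do not say how reads were divided between such copies.

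The comparison of the genotypes asks what changes in these cells when Cre targets Nrp1, a co-receptor for semaphorins and VEGF. Nrp1 itself was lower in KO, and the authors' deposited table gave it a log2 difference of -1.18 ± 0.21 (SE) and an adjusted p of 1.27e-04. By genotype means derived from baseMean and this difference, Nrp1 in KO stood at 44.2% of WT. These values cover all exons of the gene and not only those that Cre removes. The table does not state which genotype is the numerator. Since WT comes first in the name of the table, its values were taken as WT over KO and turned, and negative values here mean lower in KO. With the other reading all directions, that of Nrp1 too, would be opposite.

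Cd3g had the largest difference of the 8. Genotype means derived from the authors' deposited table, with equal weight for each genotype, were 1271 normalized counts in WT and 654 in KO, so KO stood at 51.5% of WT. The authors' deposited table gave a log2 difference of -0.96 ± 0.24 (SE; adjusted p = 0.0292), and the 95% interval of ±1.96 SE ran from -1.42 to -0.49. Bulk RNA cannot tell fewer cells with the transcript from less of it per cell.

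The other CD3 chains were less abundant and their differences less precise. Cd247 had derived means of 213 in WT and 126 in KO, and the authors' deposited table gave a log2 difference of -0.75 ± 0.40 (adjusted p = 0.403). Of the exonic bases of Cd247, 3007 (56.4%) are also exon of Pou2f1, a widely expressed transcription factor gene, on the opposite strand. The labels do not say that the library kits mark strand, so reads there could come from either gene. Cd3e had derived means of 59.5 and 44.0, with a difference in the authors' deposited table of -0.44 ± 0.71 (adjusted p = 0.840). Cd3d had 18.2 and 18.0, with a difference in the authors' deposited table of -0.02 ± 1.15 (adjusted p = 0.997). The intervals of Cd3e (-1.83 to 0.96) and Cd3d (-2.28 to 2.24) both include the difference seen for Cd3g, so it is not shown that these chains behaved differently from it. Given their errors, Cd3e would have needed a log2 difference of 2.59 and Cd3d one of 4.19 in either direction to be called by the authors' test, against 0.87 for Cd3g.

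The kinases and adaptors did not pass the authors' test, and their differences were smaller than that of Cd3g. Lck had derived means of 1180 in WT and 785 in KO, with a log2 difference in the authors' deposited table of -0.59 ± 0.27 (adjusted p = 0.280). Its SE was 1.22 times the median SE of genes of like baseMean, the widest of the 8 on that measure. Zap70 had derived means of 2144 and 1603, with a difference in the authors' deposited table of -0.42 ± 0.17 (adjusted p = 0.228). Lat had 2100 and 1574, with a difference in the authors' deposited table of -0.42 ± 0.20 (adjusted p = 0.325). Lcp2 had 8556 and 6717, with a difference in the authors' deposited table of -0.35 ± 0.15 (adjusted p = 0.245). The derived mean of KO thus lay between 66.5% and 78.5% of that of WT for these 4 genes.

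**Figure D3:**
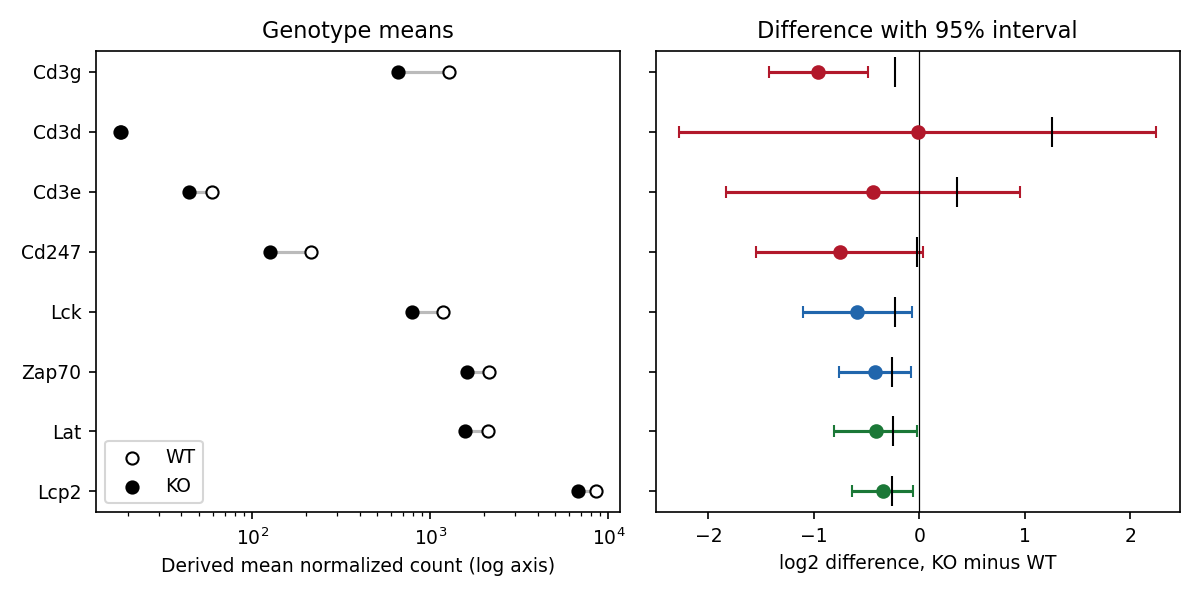
Left, mean normalized count of each gene in WT (open) and KO (filled), derived from baseMean and the log2 difference, on a log axis. Right, log2 difference (KO minus WT) with its 95% interval, and a vertical tick at the median difference of the 501 genes nearest in baseMean. Cd3g lies at -0.96 with an interval from -1.42 to -0.49, and the intervals of Cd3e and Cd3d span 0.

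Of the 8 genes, 1 was called lower and 0 higher at an adjusted p under 0.05, where 0.0990% of the 19193 genes tested were called lower and 0.453% higher. At an unadjusted p under 0.05, 5 of the 8 were lower, against 3.95% of all genes tested. All 8 log2 differences lay below 0, against 46.0% of all genes tested, with a median of -0.43 against 0.08. Since the set was put together from this contrast, nothing is read from these counts.

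The direction of a gene in this table went with its abundance. Of the 2480 genes tested with a baseMean of at least 1000, 92.9% had a log2 difference below 0 and the median was -0.25, whereas of the 9968 with a baseMean under 100, 18.2% did and the median was 1.10. The part of this trend in the values of the 8 genes was not tested. Against the running median of the 501 genes nearest in baseMean, Cd3g lay lower by a log2 difference of -0.72 and Cd247 by -0.73, while Lcp2 (-0.09), Zap70 (-0.16) and Lat (-0.16) lay close to it. Lck lay at -0.36 from its running median, Cd3e at -0.79 and Cd3d at -1.28, the last 2 little more than 1 SE away. With the trend subtracted from all genes, Cd3g no longer passed (adjusted p = 0.376), and it did not pass when values were centred on abundant genes (-0.71, adjusted p = 0.103).

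**Figure D4:**
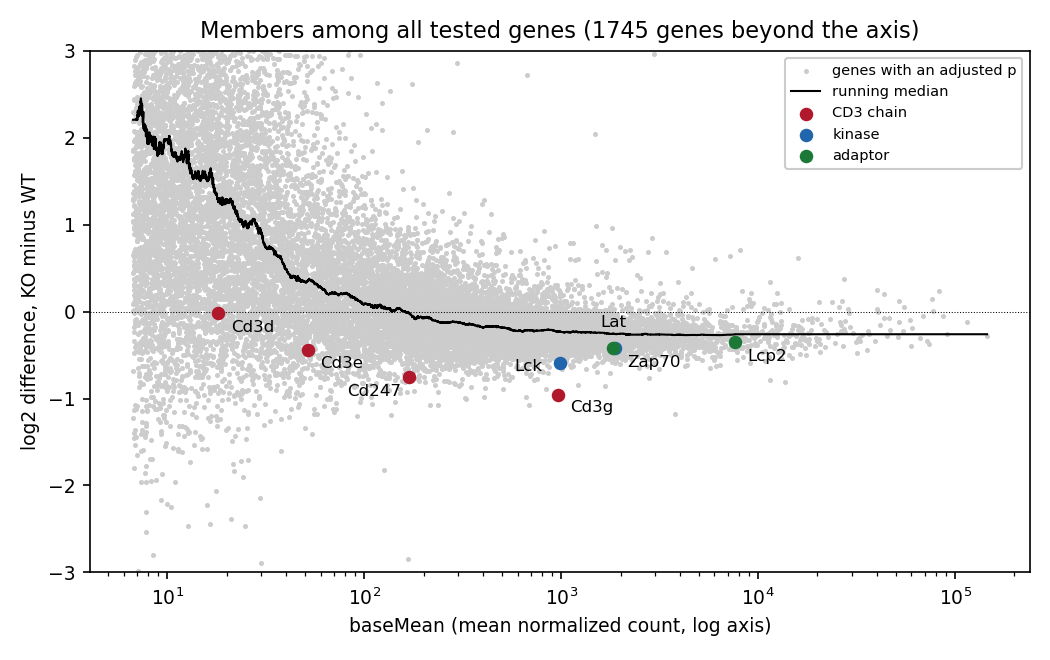
Log2 difference (KO minus WT) against baseMean on a log axis for all genes with an adjusted p (grey), with their running median (line) and the 8 genes in colour. Cd3g lies 0.72 below the line on the log2 scale, while Lcp2, Zap70 and Lat lie near it.

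The wider T cell receptor pathway was described with 5 lists of 79 genes, 78 of them in the table and 76 with an adjusted p. None of the 76 was called in either direction by the authors' test, with 15 lower and 0 higher at an unadjusted p under 0.05. That is 19.7% lower at an unadjusted p, against 3.95% of all genes tested. Genes with a baseMean of at least 1000 gave 21.6%, and those with 100 to 1000 gave 3.20%. The median log2 difference of the 76 was -0.27, and their median baseMean was 822.

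Among the 8 receptor constant genes, 7 had an adjusted p and 0 were called. At an unadjusted p under 0.05, 1 (14.3%) was lower, against 3.95% of all genes tested. Genes with a baseMean of at least 1000 gave 21.6%, and those with 100 to 1000 gave 3.20%. Trbc1 stood in the authors' deposited table at -0.46 ± 0.18 (adjusted p = 0.192) and Trbc2 at -0.34 ± 0.18 (adjusted p = 0.401). Trac stood in the authors' deposited table at -0.26 ± 0.56, Tcrg-C1 at -0.26 ± 0.38, Tcrg-C4 at -0.15 ± 0.21, Tcrg-C2 at 0.19 ± 1.70 and Trdc at 0.30 ± 0.95. No constant gene had an interval that excluded 0 except Trbc1.

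Of 15 kinases and phosphatases of the proximal pathway measured, 0 were called. At an unadjusted p under 0.05, 4 (26.7%) were lower, and 14 (93.3%) had a log2 difference below 0. All genes tested gave 3.95% and 46.0%. Those with a baseMean of at least 1000 gave 21.6% and 92.9%, and those with 100 to 1000 gave 3.20% and 69.8%. Ptprc, the CD45 phosphatase that keeps Lck active, stood in the authors' deposited table at -0.32 ± 0.15 (adjusted p = 0.313) and Ptpn22, a phosphatase that opposes Lck and ZAP-70, at -0.27 ± 0.18 (adjusted p = 0.543). Sit1, a transmembrane adaptor that restrains receptor signalling, stood in the authors' deposited table at -0.75 ± 0.32 (adjusted p = 0.249). The difference of Ptprc was close to those of Zap70 and Lat.

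Of 25 genes for partners of LAT and SLP-76, 0 were called. At an unadjusted p under 0.05, 6 (24%) were lower, and 20 (80%) had a log2 difference below 0, with a median of -0.26. All genes tested gave 3.95% and 46.0%. Those with a baseMean of at least 1000 gave 21.6% and 92.9%, and those with 100 to 1000 gave 3.20% and 69.8%. Vav1, an exchange factor bound by SLP-76, stood in the authors' deposited table at -0.46 ± 0.18 (adjusted p = 0.192) and Inpp5d, the SHIP-1 lipid phosphatase, at -0.42 ± 0.16 (adjusted p = 0.180). Sla, an adaptor that limits receptor levels, stood in the authors' deposited table at -0.16 ± 0.14 (adjusted p = 0.678) and Sh2d2a, the adaptor TSAd, at -0.24 ± 0.15 (adjusted p = 0.505). Of 22 downstream genes, 0 were called. Beside the same shares, 4 (18.2%) were lower at an unadjusted p under 0.05 and 17 (77.3%) lay below 0, with a median of -0.27. Itpr3, a calcium channel of the endoplasmic reticulum, stood in the authors' deposited table at -0.63 ± 0.23 (adjusted p = 0.169), and its relative Itpr2 at -0.31 ± 0.14 (adjusted p = 0.319). Malt1, a protease of the NF-kB arm, stood in the authors' deposited table at -0.39 ± 0.17 (adjusted p = 0.243), Rasgrp1, a Ras activator, at -0.28 ± 0.20 (adjusted p = 0.564) and Dgka, a kinase that removes diacylglycerol, at -0.30 ± 0.18 (adjusted p = 0.476).

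Co-receptor and adhesion genes were mostly of low abundance, and 0 of the 7 with an adjusted p were called, nor did any have an unadjusted p under 0.05. Cd28, the costimulatory receptor, was the most abundant at 108 per kb and stood in the authors' deposited table at -0.11 ± 0.25 (adjusted p = 0.887). Cd2, an adhesion receptor, stood in the authors' deposited table at 0.30 ± 0.55 and Cd6, a scavenger-family receptor, at -0.57 ± 0.67. Cd8b1 stood in the authors' deposited table at 2.66 ± 1.50 (adjusted p = 0.429), and Cd8a, with no adjusted p, at 5.70 ± 3.08. These last values rest on few reads and give no measured fold.

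Markers of other lymphocytes are given beside these differences, because CD3 genes are also markers of T cells. Of 15 T cell markers, which include constant and co-receptor genes above, 14 had an adjusted p and 0 were called. Of these 14, 1 (7.14%) was lower at an unadjusted p under 0.05 and 10 (71.4%) lay below 0, with a median of -0.30. Of all genes tested, 3.95% were lower at an unadjusted p and 46.0% lay below 0. The median baseMean of the 14 was 104. Genes with a baseMean of 100 to 1000 gave 3.20% and 69.8%, and those under 100 gave 0.0702% and 18.2%. The derived means of the T cell markers summed to 9527 in WT and 7468 in KO, most of it from Trbc1 and Trbc2. Ccr7, a chemokine receptor gene of naive T cells, was the next most abundant and stood in the authors' deposited table at -0.34 ± 0.26 (adjusted p = 0.590). The 6 gamma delta T cell markers summed to 2923 and 2661, and the 8 NK cell markers to 128 and 137. The 8 B cell markers summed to 165 in WT and 332 in KO, with 0 called and 2 higher at an unadjusted p under 0.05. All 8 have a baseMean under 100, where 17.6% of genes tested were higher at an unadjusted p, against 9.62% of all genes tested. Of the B cell markers, Cr2, a complement receptor of B cells, stood in the authors' deposited table at 3.52 ± 1.19 (adjusted p = 0.130) and Ms4a1, which encodes CD20, at 2.66 ± 1.20 (adjusted p = 0.281). Of the 13 ILC2 markers 0 were called and 6 (46.2%) were lower at an unadjusted p under 0.05, with all 13 below 0 and a median of -0.34. Of genes tested with a baseMean of at least 1000, 21.6% were lower at an unadjusted p and 92.9% lay below 0, with a median of -0.25. Against the running median at their own baseMean, 8 of the 13 ILC2 markers lay lower. The part of other cells in the difference of Cd3g was not tested.

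Genes beside Cd3g on chromosome 9 did not pass the authors' test. Ube4a stood in the authors' deposited table at -0.19 ± 0.23 (adjusted p = 0.762), Atp5l, a subunit of the ATP synthase, at -0.31 ± 0.21 (adjusted p = 0.547) and Kmt2a, a histone methyltransferase gene, at -0.11 ± 0.19 (adjusted p = 0.855). On the other side, Mpzl2 stood in the authors' deposited table at 3.27 ± 1.38 (adjusted p = 0.240), Mpzl3 at 0.62 ± 0.47 and Amica1 at 0.07 ± 1.02.

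The test is the one the authors ran, and its p-values are two-sided and adjusted by Benjamini-Hochberg over 19193 genes. The labels do not say whether the pools of a genotype share a day or a litter, so the p-values apply to these pools alone. The call of Cd3g ended without a filter on low baseMean, where 38697 genes were adjusted for (adjusted p = 0.0588).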

How the data were processed

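RNA of 4 samples, 2 WT and 2 KO, each a pool of 3 to 4 mice, was sequenced after SMART-Seq HT cDNA synthesis, per the labels' protocols. The submitters' processing notes name HISAT2, Cufflinks and the build mm10 but not what each was used for. The authors deposited 1 comparison, whose columns carry the names DESeq2 gives its results, per the file headers. For each gene it holds baseMean (a signal: the mean normalized count over the libraries), a log2 fold change and its standard error on the log2 scale, per the file headers. The authors also deposited their test's statistic, a score per gene, per the file headers. Each p-value was deposited by the authors too, raw and, where it passed their filter, adjusted. A further 8 columns of values per library matched no sample label by name and entered no result. Depth per library is therefore not analysed here, and baseMean sums to 12974883 over all genes.

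The deposited statistic equals the log2 fold change over its error within 5.35e-08, and adjusting the 19193 genes down to a baseMean of 6.71 by Benjamini-Hochberg matches the deposited adjusted p within 3.96e-05. A count model was foreseen only if library columns could be matched, and none could. Genotype means follow from baseMean and the fold change if both genotypes weigh the same. Exon lengths came from GENCODE M21 (mm10), which held 38388 of 38697 genes, and upstream sequences from RefSeq (GRCm38.p6). All 8 members had a promoter window, 11 windows in all, and 4 list symbols were matched by an older symbol. The running median over 501 genes and the adjustment were tested on simulated data. Python 3.11.15, numpy 2.4.6, pandas 2.3.3 and scipy 1.17.1 were used.

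The 8 members and the 11 gene lists were chosen with earlier results of these data known. Named genes were the 8 members, all receptor constant genes, Nrp1 and the 3 nearest measured genes on each side of the Cd3 cluster. Of each other list they were every called gene, the 3 most abundant and the 2 with the smallest p. Cd4, Cd5, Foxp3 and Syk were added as defining markers or relatives, and Cd27, Lef1, Themis and Trat1 to complete the T cell list. Of the genes this rule names, 1 is not reported here. Protein sequences were not used here.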

Additional observations from a re-analysis of the deposited data

How the results depend on the processing

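No paired analysis was possible because the comparison is deposited as 1 value per gene and no column of values per library could be matched to a sample, so replicates could be neither blocked nor left out. Genes called in all numbered 106 as deposited, 23 without a filter on baseMean, 35 with a baseMean of at least 50, 56 with protein-coding genes alone, 227 when centred on abundant genes (225 higher, 2 lower, against 87 and 19), 21 with the running median subtracted and 306 at an adjusted p under 0.1. Of the 8 members, 1 (Cd3g) was called as deposited, at an adjusted p under 0.1, with a baseMean of at least 50 and among protein-coding genes alone. The count was 0 without a filter (Cd3g adjusted p = 0.0588), 0 when centred (0.103) and 0 with the running median subtracted (0.376). The first of these adjusts for more genes by construction, centring adds 0.25 to each log2 difference, and beyond that the cause was not tested. Cd3d turned direction when centred, to 0.23. Of the other comparisons of single members, 35 kept direction and call. The pathway genes gave 0 calls in each of these settings. Levels per length kept the order of the 8 members with the longest transcript. The values of Cd3d and Cd3e are limited by their low baseMean, which leaves SEs of 1.15 and 0.71.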

Other observations

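Genes for signalling adaptors, kinases and receptor chains used by other immune receptors were measured beside the CD3 chains. Hcst, which encodes the adaptor DAP10, was the most abundant of 9 such genes at 1506 per kb of exon, followed by Lyn, a Src-family kinase of myeloid and B cells, at 555. Cd3g stood at 2.13 times the level per kb of Fcer1g, the common gamma chain of Fc receptors, and at 1.43 times that of Tyrobp, which encodes DAP12. None of the 9 was called in the authors' deposited table, with 1 (Blnk, an adaptor of B cells, at 2.40 ± 0.86, adjusted p = 0.156) higher and 0 lower at an unadjusted p under 0.05, where 9.62% of all genes tested were higher. Hcst was listed there at -0.21 ± 0.21 and Lyn at -0.07 ± 0.18.

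For pairs of related genes, Zap70 stood at 38.1 times the level per kb of Syk, the related kinase of B and myeloid cells, and Lat at 5.86 times that of Lat2, which encodes the related adaptor NTAL, while Lck (336 per kb) was below Lyn (555). These ratios are of means over both genotypes and have no error per sample.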
